A study of Arabidopsis thaliana with 6 samples.

Results

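The chloroplast-encoded transcripts of Arabidopsis seedlings were examined, defined as every row of the expression tables whose identifier carries the chloroplast locus-tag prefix ArthC. The rule took 123 of 38150 rows. They comprised 82 protein-coding rows (ArthCp), which stand for 77 distinct genes, 6 ribosomal RNA rows (ArthCr) and 35 rows with the tag ArthCt, of which 34 are transfer RNAs and 1 is a 4.5S ribosomal RNA. All 123 matched the plastid record of the RefSeq annotation of TAIR10.1, a circle of 154478 bp. Another 4 plastid rows lay outside the rule because their tags are written in lower case: a full-length ycf1, whose FPKM was 0.0168, 0.0147 and 0.198 in nid1 and 0.198, 0.0550 and 0.203 in WT, and 3 transfer RNAs listed at 0. Both rps12 genes were not analysed here.

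The compared groups were 3 libraries of the nid1 knockout mutant and 3 of the wild type, Col-0 (WT), each made from whole plants 9 days old. Both genotypes had the same history: growth on half-strength MS medium with 20 mM nitrate, a period without nitrate, then 0.05 mM nitrate for 6 h, at 23 °C and 60% humidity under 16 h of light and 8 h of dark. Plants kept at high nitrate were not analysed here, so only the genotypes are compared. The labels call nid1 a knockout without naming its locus or allele, so the targeted gene could not be checked here, and they do not say whether replicates came from separate plants or cultures. P-values therefore measure only the spread between these libraries, which may be technical. Libraries were made with a poly(A)-selecting, strand-marking kit and read as 101 bp pairs. Values are FPKM, fragments per kilobase of transcript, scaled by library, which allows a rough comparison of levels between genes. For short genes, and for sequences with an identical copy elsewhere, such a comparison is unreliable, as described below.

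Chloroplast genes are transcribed by a bacterial-type RNA polymerase whose core subunits are encoded in the plastid, guided by nuclear-encoded sigma factors, and by a phage-type polymerase encoded in the nucleus. The bacterial-type enzyme is known for the photosynthesis genes, the phage-type enzyme for housekeeping genes such as rpoB and accD. Chloroplast messengers carry no long stable poly(A) tail, and in plastids a tail marks an RNA for decay. A poly(A) library therefore captures a small and possibly uneven sample of the chloroplast transcriptome, and the levels below are levels in such libraries, not total chloroplast RNA.

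A 5S ribosomal RNA row and psbA had the highest FPKM averaged over the 6 libraries, a mean that rests mainly on nid1 replicate 1; psbM and rpl32, both under 200 bp, were higher than psbA in some libraries. The 5S row (ArthCr091) lies at Pltd:130580-130700 on the minus strand in the inverted repeat, and the same 121 bases occur with 100% identity at Pltd:107949-108069. The reference sequence of the row, shown because it had the highest mean level, reads as follows.
5S rRNA: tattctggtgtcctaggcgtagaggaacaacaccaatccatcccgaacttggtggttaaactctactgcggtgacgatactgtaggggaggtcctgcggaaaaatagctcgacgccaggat

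The psbA gene, at Pltd:383-1444 on the minus strand, encodes the D1 protein of the photosystem II reaction centre. A bacterial-type promoter pair, TTGACA and TATAAT separated by 16 to 19 bases, was searched with at most 2 of the 12 letters mismatched in the 250 bases before each of the 82 protein-coding starts. It was matched on the gene's own strand in 10 windows (12.2%) and on either strand in 18 (22%). The closest matches, with 1 mismatch, preceded psbA (Pltd:1526-1563) and ndhF (Pltd:112832-112868), both on the minus strand. They are printed because they set psbA, the highest single-copy messenger of 200 bp or more in each of the 6 libraries, beside ndhF, one of the scarce ones, with the matched letters in capitals.
psbA: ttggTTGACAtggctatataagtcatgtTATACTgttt
ndhF: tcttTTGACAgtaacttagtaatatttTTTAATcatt
The psbA match ends 85 bases before the start codon and the ndhF match 197 bases before it. A match of letters is a description and does not identify a working promoter.

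One library stood apart before any comparison was made. In nid1 replicate 1, the 123 rows summed to 4323 FPKM, against 388 and 109 FPKM in the other nid1 libraries and 44.1, 281 and 150 FPKM in WT. Without the 6 ribosomal RNA rows the sums were 517, 87.3 and 74.1 FPKM in nid1 and 44.1, 265 and 94.5 FPKM in WT. As a share of all FPKM in a library, the 123 rows held 0.542%, 0.0482% and 0.0147% in nid1 and 0.00605%, 0.0291% and 0.0198% in WT. Without ribosomal RNA rows the share was 0.0649%, 0.0109% and 0.0100% in nid1 and 0.00604%, 0.0275% and 0.0125% in WT. The listed FPKM of the 123 rows was thus a small share in all 6 libraries. The libraries of a genotype differed from each other several times over. Rows with an identical plastid copy, ribosomal RNA among them, have uncertain levels, so these shares do not measure how much chloroplast RNA a library held. Group results are given with and without nid1 replicate 1.

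The libraries held FPKM sums of 740626 to 804310 in nid1 and 730062 to 964273 in WT. Fragment counts were not used here; from the worth of 1 fragment in long single-transcript genes, depth relative to WT replicate 1 was roughly 0.713 to 0.826 in nid1 and 0.814 to 1 in WT. On log2(FPKM + 1) over 20533 expressed rows, libraries correlated at r = 0.970 to 0.990 across genes, which are not independent replicates. In a principal component analysis, WT replicate 2 was the most distant library along the leading axis (38.3% of the variance). All 13 root markers and all 11 shoot epidermis and stomata markers were above 0 in every library. Root markers summed to 3198 to 3324 FPKM in nid1 and 3812 to 4417 FPKM in WT, mostly from the root beta-glucosidase gene PYK10. Over the 12 root markers that were tested, the median log2 change in nid1 was 0.025, with 7 above 0 and 5 below, so the list as a whole was not lower. The shoot markers summed to 349 to 446 FPKM in nid1 and 299 to 474 FPKM in WT. In whole seedlings, fewer cells of a type and less RNA per cell cannot be told apart.

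**Figure D1:**
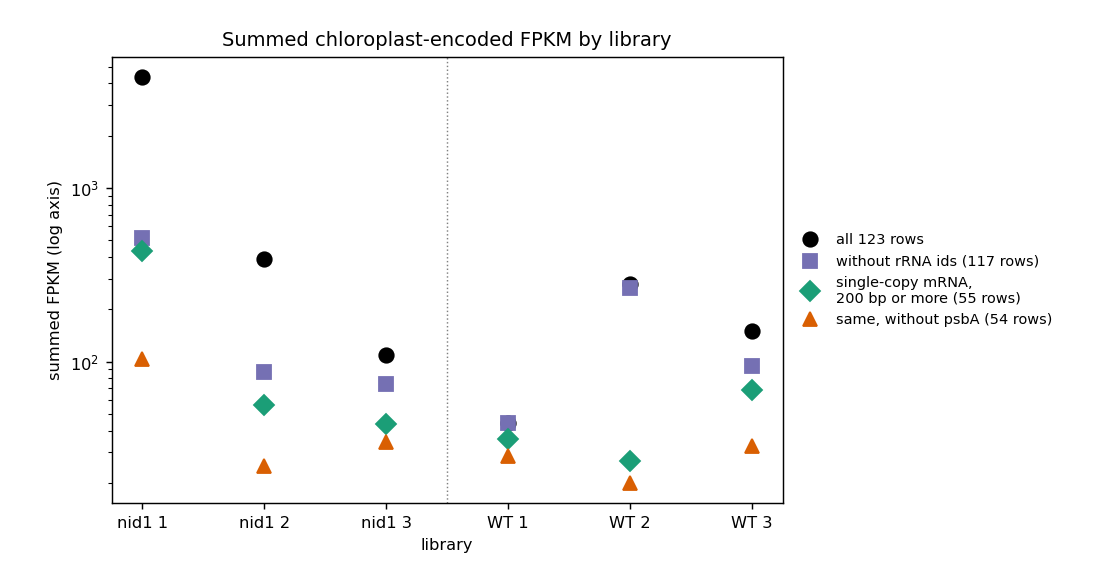
Summed FPKM of chloroplast-encoded rows in each library (log axis), nid1 left and WT right of the dotted line, for all 123 rows, for 117 rows without ribosomal RNA ids, for 55 single-copy messengers of 200 bp or more, and for 54 of these without psbA. All 4 sums peak in nid1 replicate 1, and the WT replicate 2 points for all rows and for rows without ribosomal RNA stand high through 1 short gene, psbM.

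Of the 123 rows, 67 were above 0 in at least 1 library, 56 were listed at 0 in all 6, and 33 were above 0 in all 6. Among protein-coding rows 61 of 82 were above 0 somewhere. The 21 that were not fall into recognisable kinds. All 11 rows whose sequence has a second, identical plastid copy were at 0 throughout: both rows each of rpl2, rpl23 and rps7, for ribosomal proteins, of ndhB, for a subunit of the NADH dehydrogenase-like complex, and of ycf2, for a large plastid protein, and a fragment of ycf1. Of 16 rows under 200 bp, 9 were at 0 throughout. The remaining one was rps16, a ribosomal protein gene whose spliced messenger measures 240 bp. A listed 0 in such files can be a failed estimate, so these rows show no absence of RNA. Of the 35 ArthCt rows, 34 were at 0, and a trnS row had 0.599, 0.126 and 0 FPKM in nid1 and 0, 0 and 0.305 FPKM in WT.

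The 55 single-copy messengers of 200 bp or more, a subset set after the values were seen, give the clearest view. None had another copy of 98% identity over 90% of its length in the nucleus, the mitochondrion or elsewhere in the plastid, and 54 were above 0 in some library. They summed to 434, 56.0 and 43.8 FPKM in nid1 and 35.7, 26.6 and 68.4 FPKM in WT. The ratio of group means was 4.09 with all libraries and 1.15 without nid1 replicate 1. With psbA also left out, the sums were 103, 25.1 and 34.6 FPKM in nid1 and 28.7, 20.0 and 32.7 FPKM in WT, with ratios of 2.00 and 1.10. The sums of nid1 replicates 2 and 3 lay within the WT range, except that without psbA nid1 replicate 3 was slightly above it.

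Most of these levels rest on few fragments. Over the 34 of them that were 500 bp or longer and above 0 somewhere, the median was about 16.5, 5.5 and 10 fragments in nid1 and 14.5, 3.5 and 11 in WT. Under 10 fragments were estimated for 12, 23 and 17 of the 34 in nid1 and for 16, 26 and 16 in WT. Small differences between single libraries were therefore not resolvable at this depth.

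Only 15 members reached 1 FPKM in at least 3 libraries and entered the test across the 20533 rows, namely 14 messengers and the 5S ribosomal RNA. With limma, 0 of 15 were called at an adjusted p under 0.05, where 0.0877% of all tested rows were called in either direction, 0.0633% as higher and 0.0244% as lower in nid1. At an unadjusted p under 0.05, 1 of 15 was higher in nid1, the 5S row, and none was lower, beside 3.65% and 2.56% of all rows. In 0 of 15 did the 2 genotypes' values separate, whereas all nid1 values lay above all WT values in 5.5% of tested rows and below them in 4.79%. The estimated log2 change was above 0 in 14 of 15, with a median of 0.37 beside 0.000218 over all rows, and in 13 of 14 messengers, with a median of 0.36; with a pseudocount of 0.1 the medians were 0.65 and 0.60. Without nid1 replicate 1 it was above 0 in 10 of 15, with a median of 0.21, and in 9 of 14 messengers, with a median of 0.15. Because the members that passed were chosen by their level, these counts describe them and do not extend to the rest of the 123 rows.

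Photosystem II, which splits water, had the highest messenger among the single-copy ones of 200 bp or more. psbA had 332, 31.0 and 9.20 FPKM in nid1 and 7.03, 6.63 and 35.6 FPKM in WT. nid1 replicate 1 was far above the rest, and the other nid1 libraries lay inside the WT range. The means were 124 ± 180 FPKM in nid1 and 16.4 ± 16.6 FPKM in WT (SD, n = 3 each), and the log2 change of 1.87 (SE 1.19) was not called (limma, adjusted p = 1.00). Without nid1 replicate 1 the change was 0.46. psbA made up 76.3%, 55.3% and 21.0% of the single-copy messenger FPKM in nid1 and 19.7%, 24.9% and 52.1% in WT, so its share also varied widely within each genotype.

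psbD, for the D2 protein that pairs with D1, had 5.52, 1.05 and 1.14 FPKM in nid1 and 1.42, 0.530 and 1.65 FPKM in WT. Its log2 change of 0.51 (SE 0.44; limma, adjusted p = 1.00) became -0.03 without nid1 replicate 1. psbB, for the core antenna protein CP47, had 3.82, 0.951 and 0.685 FPKM in nid1 and 0.659, 0.660 and 0.790 FPKM in WT. Both genes were several times higher in nid1 replicate 1 than in any other library, and the genotypes overlapped. psbC, which overlaps psbD by 53 bp on the same strand so that fragments there could be assigned to either, had 5.75, 0.771 and 0.918 FPKM in nid1 and 0.619, 0.469 and 1.07 FPKM in WT.

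The shortest photosystem II genes gave isolated values. psbM (105 bp) was listed at 0 in 5 libraries and at 209.7 FPKM in WT replicate 2, where it made up most of the messenger sum. psbF (120 bp), for a cytochrome b559 subunit, was at 15.8 FPKM in WT replicate 3 and at 0 elsewhere. psbN (132 bp), which lies on the strand opposite to the psbB operon, had 64.1, 7.22 and 0 FPKM in nid1 and was at 0 in all WT libraries; the strand setting of the counting is unknown, so its fragments cannot be told from those of the operon. Since FPKM divides by length, a fragment weighs more in a short transcript, and values this far apart within a genotype were not read as differences.

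Photosystem I, which reduces ferredoxin, has its reaction centre proteins encoded by psaA and psaB. psaA had 2.06, 0.165 and 0.457 FPKM in nid1 and 1.13, 0.110 and 1.08 FPKM in WT. psaB had 2.58, 0.380 and 0.670 FPKM in nid1 and 1.02, 0.0222 and 0.789 FPKM in WT. In both genes WT replicate 2 was the lowest library and nid1 replicate 1 the highest. For psaA the log2 change was 0.03 (SE 0.39; limma, adjusted p = 1.00). psaJ (135 bp), a small subunit, had 0, 6.83 and 6.72 FPKM in nid1 and 0, 6.41 and 5.41 FPKM in WT, and thus did not share the peak in nid1 replicate 1.

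The cytochrome b6f complex, which passes electrons between the photosystems, was in its summed FPKM also highest in nid1 replicate 1. petD, for subunit IV, had 11.5, 0.402 and 0.950 FPKM in nid1 and 0.645, 0.378 and 1.51 FPKM in WT. petB, for cytochrome b6, had 7.48, 0.694 and 0.812 FPKM in nid1 and 0.179, 0.109 and 1.41 FPKM in WT. Both genes follow psbB in the same operon, and in all 3 nid1 replicate 1 was the highest library. rbcL, for the large subunit of the carbon-fixing enzyme Rubisco, had 7.41, 0.852 and 0.604 FPKM in nid1 and 0.156, 0.214 and 0.964 FPKM in WT. The other nid1 libraries lay within the WT range of rbcL.

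ATP synthase genes varied in how far nid1 replicate 1 stood out. Against the median of the other 5 libraries it was 6.32 times for atpF and 4.52 times for atpA. It was 3.18 times for atpH and 1.39 times for atpB. atpH, for the c subunit of the membrane ring, had 5.10, 1.60 and 2.05 FPKM in nid1 and 0.844, 1.49 and 1.74 FPKM in WT. Its log2 change was 0.65 (SE 0.32; limma, adjusted p = 0.886), and 0.28 without nid1 replicate 1. atpB, for the catalytic beta subunit, had 1.19, 0.860 and 0.993 FPKM in nid1 and 0.877, 0.257 and 0.654 FPKM in WT. Its groups overlapped only through WT replicate 1 and nid1 replicate 2.

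The NADH dehydrogenase-like complex, which carries cyclic electron flow, was represented by scarce messengers. ndhE had 2.68, 0 and 0.396 FPKM in nid1 and 0, 0.338 and 0 FPKM in WT. ndhF had 0.203, 0 and 0.231 FPKM in nid1 and 0.0717, 0.0808 and 0.0803 FPKM in WT, and so stayed near the bottom of the range. ndhD had 1.13, 0.422 and 0.422 FPKM in nid1 and 0.124, 0.196 and 0.363 FPKM in WT, with all nid1 values above all WT values.

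Of the 54 single-copy messengers above 0, ndhD and rps19 were the 2 in which all nid1 libraries lay above all WT libraries, none showed the reverse, and 52 overlapped. Over all rows above 0 in some library, 5.47% lay wholly above and 4.59% wholly below, so the members' counts do not exceed that background. rps19, for a ribosomal protein, had 0.498, 0.443 and 1.35 FPKM in nid1 and was listed at 0 in all WT libraries. Neither gene passed the filter of the main test.

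Genes of the plastid's own translation stood out less in nid1 replicate 1. rpl32 (159 bp), for a ribosomal protein, had 11.9, 17.1 and 17.2 FPKM in nid1 and 6.60, 20.5 and 4.69 FPKM in WT, with a log2 change of 0.73 (SE 0.44; limma, adjusted p = 1.00). rps3 had 1.77, 1.60 and 2.52 FPKM in nid1 and 1.77, 0.534 and 1.13 FPKM in WT, with a log2 change of 0.50 (SE 0.23; limma, adjusted p = 0.863). In both genes nid1 replicate 1 was not the highest library. rps14 had 2.33, 0.289 and 1.61 FPKM in nid1 and 1.93, 0 and 1.43 FPKM in WT. rpl14 was the only tested member with a change below 0, at -0.22 (SE 0.36; limma, adjusted p = 1.00), from 1.23, 0.223 and 2.08 FPKM in nid1 and 0.896, 1.06 and 2.38 FPKM in WT. rpl22 varied little, with 1.28, 0.986 and 1.47 FPKM in nid1 and 1.16, 1.05 and 1.04 FPKM in WT.

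rpoB, for the beta subunit of the bacterial-type polymerase, had 0.433, 0.413 and 0.426 FPKM in nid1 and 0.578, 0.384 and 0.550 FPKM in WT. Its nid1 values were nearly equal and nid1 replicate 1 did not stand out, on about 32 to 37 fragments per nid1 library and 33 to 61 per WT library. rpoA, for the alpha subunit, had 0.366, 0.191 and 0.241 FPKM in nid1 and 0.574, 0.178 and 0.587 FPKM in WT. The genotypes overlapped in both genes.

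Among other proteins, clpP, for the catalytic subunit of the stromal Clp protease, had 8.45, 4.77 and 2.54 FPKM in nid1 and 2.78, 4.62 and 3.29 FPKM in WT. Its log2 change was 0.36 (SE 0.33; limma, adjusted p = 1.00) and 0.01 without nid1 replicate 1. accD, for a subunit of the acetyl-CoA carboxylase of fatty acid synthesis, had 0.622, 0.0850 and 0.0823 FPKM in nid1 and 0.446, 0.0786 and 0.217 FPKM in WT. ycf4, a photosystem I assembly factor, had 0, 0.590 and 1.03 FPKM in nid1 and 0.121, 0.267 and 0.127 FPKM in WT, so its lowest value fell in the library where most members were highest.

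**Figure D2:**
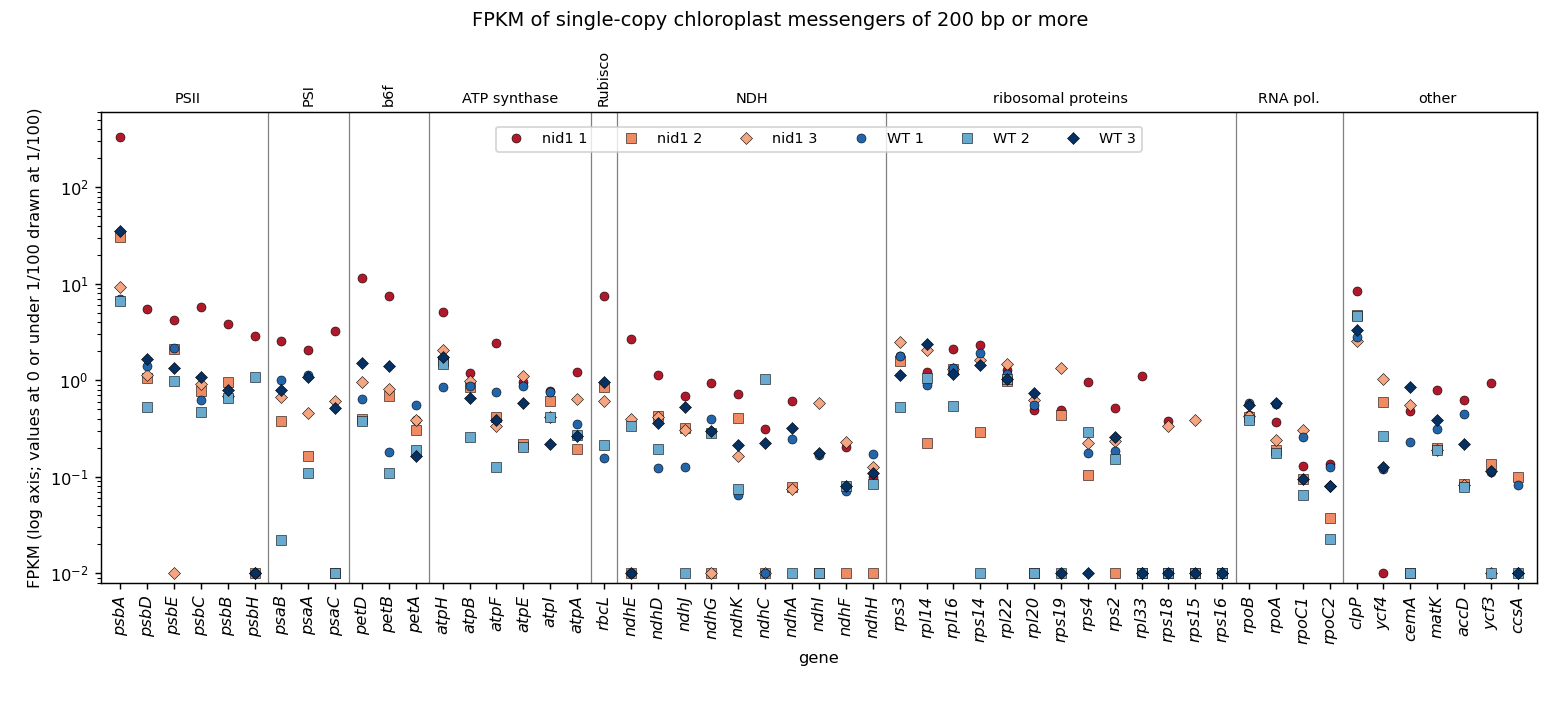
FPKM (log axis) of 53 of the 55 single-copy messengers of 200 bp or more in each of the 6 libraries, grouped by role, values of 0 or near it being drawn at the bottom of the axis. nid1 replicate 1 (dark red circles) is the highest point in 34 of the 52 genes drawn that are above 0, mostly on the photosynthesis side, and lies among the other libraries for rpoB, rpl22 and rps3.

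The height of nid1 replicate 1 was uneven across roles. It was the highest library in 35 of 54 messengers, while nid1 replicates 2 and 3 were highest in 1 and 10, and WT replicates 1, 2 and 3 in 3, 1 and 4. Its level was divided by the median of the other 5 libraries in 45 of 55 messengers, those where that median was above 0. The median ratio was 5.59 in 5 photosystem II genes (3.10 to 36.1) and 10.8 in 3 cytochrome b6f genes (1.29 to 17.8), and rbcL alone stood at 12.3. It was 4.17 in 2 photosystem I genes, 2.51 in 6 ATP synthase genes and 2.82 in 8 NADH dehydrogenase-like genes. It was 1.63 in 10 ribosomal protein genes (0.891 to 5.47) and 1.44 in 4 RNA polymerase genes (1.02 to 1.68). The library was picked out because it is high, so these ratios describe it and carry no test.

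The ratios also followed position in the genome in part. In the psbB operon they were 5.59 for psbB, 10.8 for petB and 17.8 for petD. Among genes of the ribosomal protein cluster on the minus strand they were 1.11 for rps3, 1.22 for rpl22, 1.16 for rpl14 and 1.63 for rpl16, and the neighbouring rpoA stood at 1.52. Within the psaA, psaB and rps14 run they were 4.50, 3.84 and 1.64. Genes outside photosynthesis were not uniformly low, with accD at 7.33, rps4 at 5.47 and matK at 4.04. For accD, WT replicate 1 (0.446 FPKM) lay close to nid1 replicate 1 (0.622 FPKM).

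**Figure D3:**
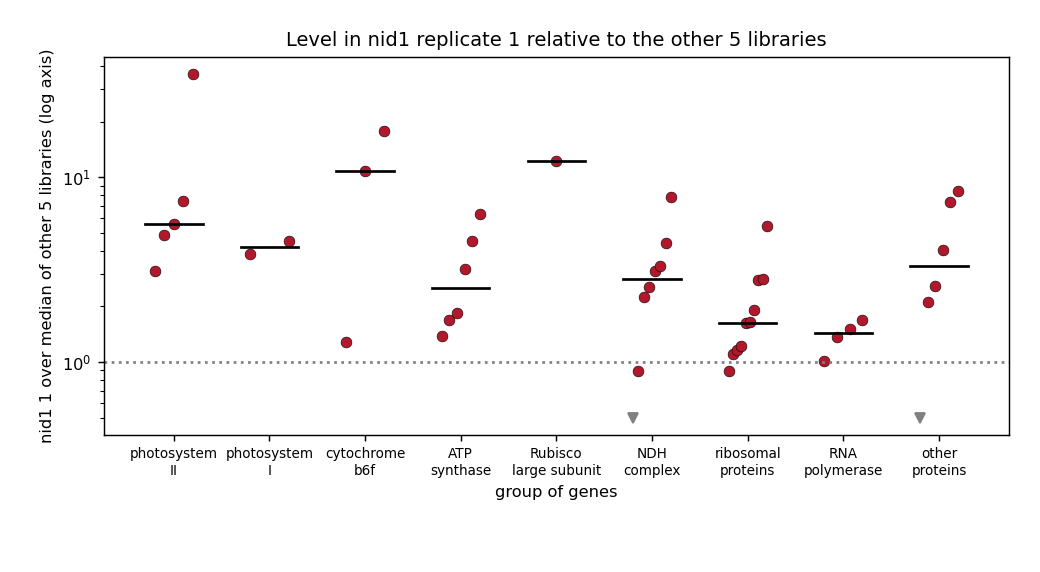
FPKM in nid1 replicate 1 divided by the median of the other 5 libraries (log axis) for each single-copy messenger with a median above 0, by role; points are genes, bars are medians, the dotted line marks a ratio of 1, and grey triangles mark genes listed at 0 in nid1 replicate 1. Medians run from 1.44 in RNA polymerase genes to 12.3 for rbcL.

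The 5S ribosomal RNA row, whose sequence is printed above, had 3806, 301 and 34.4 FPKM in nid1 and 0, 15.7 and 55.3 FPKM in WT. nid1 replicate 1 was again far above the rest, and WT replicate 3 exceeded nid1 replicate 3. The log2 change of 5.13 (SE 1.86) was not called (limma, adjusted p = 0.671; unadjusted p = 0.0253), and was 3.40 without nid1 replicate 1. The rows of 16S and 23S ribosomal RNA, the main RNAs of the plastid ribosome, were at most 0.122 FPKM in any library. Each of these rows, like the 5S row, has a copy of 100% identity in the plastid, so their levels are uncertain. The 5S row is also only 121 bp long, and a fragment weighs more in a short transcript.

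Most other RNAs without long stable poly(A) tails were also highest in nid1 replicate 1; small nucleolar RNA, highest in WT replicate 2, was not. The cytosolic 18S ribosomal RNA row had 1697, 177 and 89.8 FPKM in nid1 and 104, 163 and 425 FPKM in WT. The mitochondrial ribosomal RNA rrn18 had 168, 33.5 and 23.1 FPKM in nid1 and 29.3, 30.8 and 54.9 FPKM in WT, and rrn26 had 149, 31.2 and 21.5 FPKM in nid1 and 30.6, 30.7 and 50.5 FPKM in WT. In these 3 rows, as in psbA, nid1 replicate 1 was the highest library and WT replicate 3 the next. The mitochondrial rrn5 row had 2799, 635 and 240 FPKM in nid1 and 188, 393 and 385 FPKM in WT. Small nuclear RNA rows summed to 1870, 545 and 317 FPKM in nid1 and 367, 1325 and 674 FPKM in WT, and small nucleolar RNA rows to 2195, 1287 and 1144 FPKM in nid1 and 1284, 2566 and 1720 FPKM in WT. Mitochondrial protein-coding rows summed to 32.9, 17.1 and 13.6 FPKM in nid1 and 14.8, 15.4 and 19.1 FPKM in WT. The part of the capture of non-polyadenylated RNA in the chloroplast levels was not tested.

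**Figure D4:**
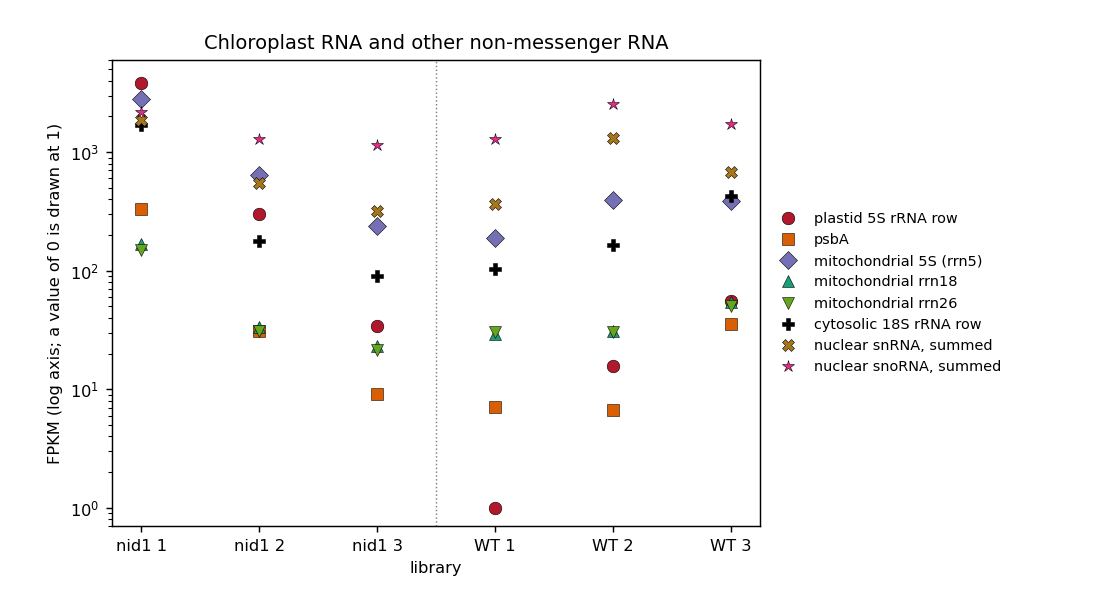
FPKM (log axis, a value of 0 drawn at 1) of the plastid 5S ribosomal RNA row and psbA beside mitochondrial and cytosolic ribosomal RNA rows and the sums of nuclear small nuclear and small nucleolar RNA rows, nid1 left and WT right of the dotted line. The series are highest in nid1 replicate 1, except small nucleolar RNA, whose highest value is in WT replicate 2; psbA, rrn18, rrn26 and the cytosolic 18S row have their next highest value in WT replicate 3.

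Of 275 mitochondrial rows, 9 were tested and 0 were called. Their log2 changes were above 0 in 7 of 9, with a median of 0.21, which became -0.23 without nid1 replicate 1. The smallest p-values were those of nad4L, a subunit of respiratory complex I (log2 change 0.77, SE 0.30; limma, adjusted p = 0.727), and of rrn5 (1.30, SE 0.79; limma, adjusted p = 1.00).

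The complexes of photosynthesis also draw subunits from the nucleus, and those messengers ranked the libraries differently. A list of 29 nuclear partner genes summed to 1629, 2813 and 2228 FPKM in nid1 and 971, 1427 and 936 FPKM in WT, with no overlap. By complex, the nuclear sums did not overlap for photosystem II, photosystem I and Rubisco, and overlapped for cytochrome b6f, at 60.5 FPKM in the lowest nid1 library against 69.3 FPKM in the highest WT library, and for ATP synthase, at 134 and 137 FPKM. Chloroplast-encoded subunits of the same complexes, 19 messengers, summed to 400, 42.6 and 22.0 FPKM in nid1 and 20.1, 14.1 and 50.8 FPKM in WT. nid1 replicate 1 was the lowest nid1 library for nuclear subunits in each of the 5 complexes and the highest of all 6 for chloroplast subunits. For Rubisco, the nuclear small subunit genes summed to 171, 326 and 298 FPKM in nid1 and 106, 122 and 121 FPKM in WT.

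All 29 nuclear partners were tested and 0 were called over all rows, although 28 were higher at an unadjusted p under 0.05, beside 3.65% of all tested rows, and 26 had all nid1 values above all WT values, beside 5.5%. Their median log2 change was 1.08. Without nid1 replicate 1, 3 were called, where 35 of 20533 rows were called in all. The 2 with the smallest p were PSAG and PSAD1, peripheral photosystem I subunits. PSAG had 9.45, 15.3 and 15.9 FPKM in nid1 and 4.43, 5.76 and 5.05 FPKM in WT (log2 change 1.23, SE 0.20; limma, adjusted p = 0.144). PSAD1 had 38.9, 62.6 and 53.6 FPKM in nid1 and 22.1, 27.2 and 20.6 FPKM in WT (log2 change 1.10, SE 0.19; limma, adjusted p = 0.166).

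**Figure D5:**
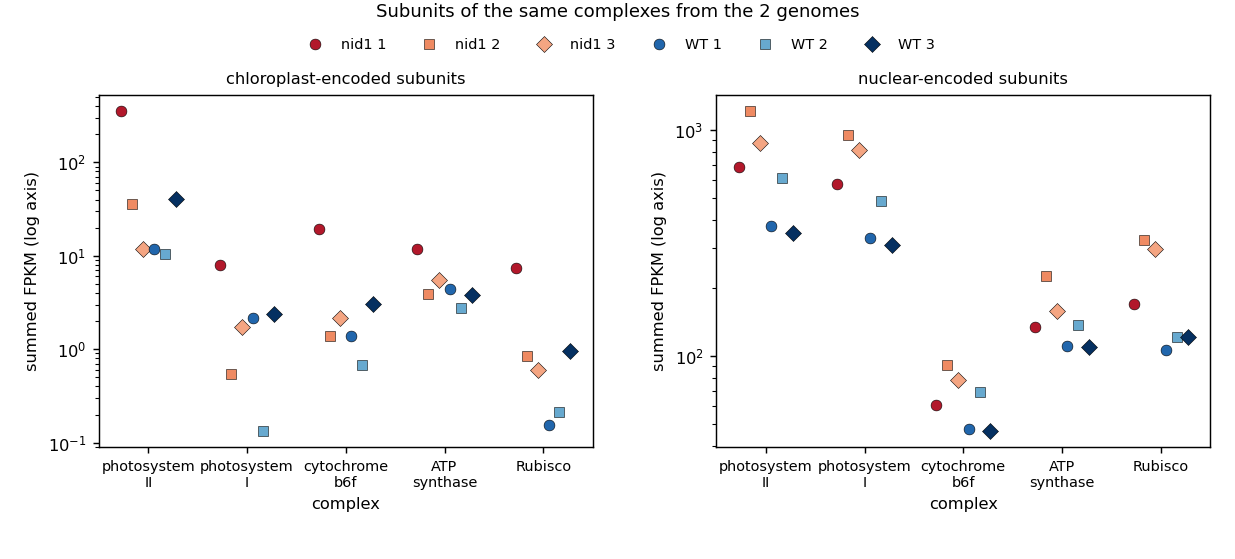
Summed FPKM (log axes) of chloroplast-encoded subunits (left) and nuclear-encoded subunits (right) of 5 photosynthetic complexes in each library, nid1 left of WT within each complex. nid1 replicate 1 is the highest library for the chloroplast-encoded and the lowest nid1 library for the nuclear-encoded subunits; the genotypes overlap in every chloroplast-encoded sum and in the nuclear-encoded sums of cytochrome b6f and ATP synthase.

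Nuclear genes that act on chloroplast transcription and RNA showed small changes, none of them called. Of 8 plastid sigma factors and phage-type polymerases 7 were tested, with a median log2 change of 0.20. SIG6, a sigma factor of seedling photosynthesis genes, had 3.32, 4.47 and 4.24 FPKM in nid1 and 2.56, 2.50 and 2.88 FPKM in WT (log2 change 0.45, SE 0.14; limma, adjusted p = 0.505). SIG5, a stress-responsive sigma factor known for psbD transcription, had 8.52, 9.53 and 7.96 FPKM in nid1 and 11.3, 10.8 and 10.5 FPKM in WT (log2 change -0.29, SE 0.12; limma, adjusted p = 0.738). The genotypes did not overlap in either gene, both named for the smallest p of their list. Of the 7 tested, 1 thus lay wholly above and 1 wholly below WT, beside 5.5% and 4.79% of all tested rows. All 12 proteins associated with the bacterial-type polymerase were tested, all had a change above 0, and their median was 0.19. Over all tested rows, 10276 of 20533 had a change above 0. Of the 12 genes, 2 lay wholly above WT and 0 wholly below, beside the same 5.5% and 4.79%. At an unadjusted limma p under 0.05, 1 of these 12 genes was higher in nid1, beside 3.65% of all tested rows. The smallest p-values among them were those of PTAC14 (0.37, SE 0.15; limma, adjusted p = 0.738) and PTAC3 (0.31, SE 0.15; limma, adjusted p = 0.865).

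Of 12 genes of plastid RNA decay and RNA binding 11 were tested, with a median log2 change of 0.22 and 4 higher at an unadjusted p under 0.05, beside 3.65% of all tested rows. CSP41A, an RNA-binding protein of the chloroplast, had 5.74, 8.65 and 6.81 FPKM in nid1 and 4.15, 4.58 and 3.28 FPKM in WT (log2 change 0.68, SE 0.17; limma, adjusted p = 0.351). CP33A, a chloroplast ribonucleoprotein, had 7.72, 9.72 and 8.73 FPKM in nid1 and 5.92, 6.37 and 7.16 FPKM in WT (log2 change 0.38, SE 0.13; limma, adjusted p = 0.644). In none of the genes named in these 3 lists was nid1 replicate 1 the highest library.

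Among the marker lists 0 genes were called. PYK10 had 2752, 2900 and 2891 FPKM in nid1 and 3860, 3993 and 3429 FPKM in WT (log2 change -0.40, SE 0.23; limma, adjusted p = 0.975), and WER, a root epidermis factor, had a log2 change of 0.12 (SE 0.12; limma, adjusted p = 1.00). In the shoot list, TMM, a receptor-like protein of stomatal patterning, had a log2 change of 0.33 (SE 0.11; limma, adjusted p = 0.636), and ATML1, an epidermal factor, one of 0.35 (SE 0.15; limma, adjusted p = 0.789). The part of tissue make-up in the chloroplast levels was not tested.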

How the data were processed

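RNA from 6 libraries (3 nid1, 3 WT) was measured by sequencing. The deposited values are FPKM, 1 per gene and library, made by the authors. The submitters' processing notes name bcl2fastq 2.20, Bowtie, TopHat2 2.0.13 and Cuffdiff 2.2.1, without roles. No source used here gives the strand setting, scaling, treatment of repeated sequences or genome build. Of 38150 identifiers, 37932 matched locus tags of RefSeq TAIR10.1 and 218 name mitochondrial positions; coordinates and sequences are from that annotation and genome, 1-based.

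The filter required 1 FPKM in at least 3 libraries. The limma package (3.58.1, R 4.3.3) fitted genotype to log2 values after adding a pseudocount of 1 to each FPKM, with eBayes moderation along a mean-variance trend. Two-sided p-values were adjusted by Benjamini-Hochberg over all 20533 rows, with a threshold of 0.05. Fold changes on this scale understate changes of low genes. Copies were sought with BLAST+ 2.17.0. Fragment numbers assume fragments of 200 bp, so no counting intervals are given. Members and gene lists were chosen with earlier results of these data known.

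Named members were the 2 with the highest mean FPKM in each role, up to 6 tested members with the largest change in each direction, a fixed set of 15 genes, and in each list the 2 genes with the smallest p. Other members were named after their values were seen: psbC, psbF, psbN, atpA, atpF, matK, rps4, rps19, rpl22, rpl16, rps16, the rows at 0 and trnS. Some members are not reported by name here. The alternatives comprised pseudocounts of 0.1 and 0.5, a filter at 0.1 FPKM or none, 2 rescalings, no variance trend, omission of each library and a replicate block.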

Additional observations from a re-analysis of the deposited data

How the results depend on the processing

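No member was called under any alternative run for the test of all members or of messengers, and limma called 8 to 70 of all rows; at most 67 members were tested, without a filter, and 23 after rescaling by the nuclear FPKM sum. With a pseudocount of 0.1 the median log2 change was 0.65 over tested members and 0.60 over messengers, against 0.37 and 0.36. Leaving out each library gave 0.21 to 0.58 and 0.15 to 0.51. Leaving out each library, an alternative for the sums chosen after seeing the data, gave ratios of nid1 to WT means of 1.57 to 16.6 for all rows (10.1 with all libraries), 0.600 to 3.27 without ribosomal RNA (1.68) and 1.15 to 5.71 for single-copy messengers (4.09), the lowest each time without nid1 replicate 1 and the highest without WT replicate 2, or WT replicate 3 for single-copy messengers. Both rescalings kept these ratios within 10.1 to 11.1, 1.68 to 1.88 and 4.07 to 4.11.

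Signs turned when 1 library was left out for psbD (-0.031 to 0.80), psbK (-0.093 to 1.10), rps14 (-0.25 to 0.62), psaJ (-0.81 to 1.10), psbE (-0.48 to 0.71), psaA (-0.38 to 0.31) and rpl14 (-0.52 to 0.15). The psbE change was also -0.64 with a pseudocount of 0.1 and -0.090 with 0.5, against 0.04. The cause was not tested. With the replicate number as a block, 0 members and 70 of all rows were called, against 18; deviations of same-numbered libraries correlated at -0.01, 0.13 and 0.30, and not every library correlated best with its own number, so the numbers were not read as pairing. Depth limits most members, whose median was about 3.5 to 16.5 fragments per library at 500 bp or more.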
